A study of Homo sapiens with 3 samples.

Results

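Among the places where the zinc finger protein ZBTB11 was found on chromatin of lung cancer cells, 6040 peaks sat at promoters and had no copy of the 7-base consensus CCGGAAG or CAGGAAG near the summit. They were chosen by 3 criteria from the ZBTB11 peaks on chromosomes 1 to 22 and X. The peak was at least 500 bp wide, the interval extended by 500 bp on each side held starts of protein-coding transcripts (GENCODE release 44) on one strand only, and the stretch from 100 bp before to 100 bp after the summit held neither form of the consensus on either strand. Of all 346803 peaks, 51238 were wide enough (14.8%), and 8615 of these lay at one-strand promoters. The 6040 peaks lacking the consensus made up 70.1% of the 8615 (Wilson 95% interval 69.1 to 71.1%), and the other 2575 had it. In stretches of the same length 500 bp away from the summits of the 8615 peaks, 91.6% lacked it, as did 88.1% of IgG peaks at one-strand promoters. Those 1149 IgG peaks were taken at any width (median 344 bp) and lay on chromosomes 1, 10 and 21. All of width, strength and the consensus come from the same peak call and sequence that chose the members, so they are described here without a test.

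The study used chromatin immunoprecipitation and sequencing in NCI-H1299, an established human lung adenocarcinoma line that lacks p53, to map where ZBTB11 sits. The cells were WT, received no treatment and were fixed with formaldehyde. The series has 3 samples, 1 library each for ZBTB11, for normal IgG as the negative control and for Input, which was not analysed here. With 1 library per antibody there is no replicate check, every comparison describes these libraries, and intervals cover counting error over peaks only.

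A promoter is the stretch around a transcript start where the transcription machinery assembles. In human cells many promoters lie in CpG islands, which are rich in G and C and keep the CG dinucleotides that most of the genome has lost. ZBTB proteins carry a BTB domain, through which proteins bind each other, and zinc fingers, which read DNA. The consensus contains GGAA, the core that transcription factors of the ETS family also read, and such words are common beside the starts of housekeeping genes.

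The sequences that follow are from hg38 and show what stood at the summits of strong peaks lacking the consensus. The first set holds words that lead in the strongest peaks, and capitals mark each copy of the named word on either strand. The capitals are GCGGAAG at NELFB, DDX55 and SLC44A1, CCGGAAC at MRPL44 and SLC33A1, CGGAAAC at AURKAIP1 and GOLGA3, and CCGGAGC at TOP3B and B4GALT7.
NELFB, chr9:137255285-137255351, plus strand: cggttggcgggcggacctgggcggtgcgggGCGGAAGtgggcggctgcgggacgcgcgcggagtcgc
DDX55, chr12:123602048-123602114, plus strand: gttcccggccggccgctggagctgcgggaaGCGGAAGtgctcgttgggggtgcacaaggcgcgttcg
SLC44A1, chr9:105244381-105244447, plus strand: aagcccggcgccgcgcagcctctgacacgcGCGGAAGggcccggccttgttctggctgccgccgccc
MRPL44, chr2:223957368-223957434, minus strand: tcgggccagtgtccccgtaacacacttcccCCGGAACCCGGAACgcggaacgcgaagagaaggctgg
SLC33A1, chr3:155854539-155854605, plus strand: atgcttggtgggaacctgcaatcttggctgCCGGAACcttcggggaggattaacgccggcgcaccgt
AURKAIP1, chr1:1375300-1375366, minus strand: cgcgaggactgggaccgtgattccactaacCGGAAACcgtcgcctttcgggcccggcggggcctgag
GOLGA3, chr12:132828874-132828940, plus strand: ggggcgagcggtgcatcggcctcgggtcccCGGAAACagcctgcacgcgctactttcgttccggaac
TOP3B, chr22:21982822-21982888, minus strand: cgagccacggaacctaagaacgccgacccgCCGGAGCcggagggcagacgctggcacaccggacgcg
B4GALT7, chr5:177600018-177600084, minus strand: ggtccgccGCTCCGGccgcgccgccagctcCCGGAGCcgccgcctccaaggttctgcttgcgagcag

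The second set holds words made only of C and G that lead in the rankings described further on, again with the word in capitals. They are CCCCGGC at STX18, CCGCCCC at TMEM222, CCGCCGC at ACSF3, CCCGGCC at RAD54L2 and CCCGGGC at PLEKHM3.
STX18, chr4:4542040-4542106, plus strand: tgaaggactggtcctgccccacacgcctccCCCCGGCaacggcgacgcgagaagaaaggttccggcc
TMEM222, chr1:27322084-27322150, minus strand: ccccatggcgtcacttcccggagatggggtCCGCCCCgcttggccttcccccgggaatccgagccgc
ACSF3, chr16:89093757-89093823, plus strand: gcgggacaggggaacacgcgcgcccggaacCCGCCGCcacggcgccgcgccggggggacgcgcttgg
RAD54L2, chr3:51538647-51538713, minus strand: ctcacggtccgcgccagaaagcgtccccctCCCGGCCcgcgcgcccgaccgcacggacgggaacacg
PLEKHM3, chr2:208025542-208025608, plus strand: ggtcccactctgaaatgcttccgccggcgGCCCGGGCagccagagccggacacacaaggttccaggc

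Where the sequence of a leading member could not be printed, that of the next strongest member was taken, after the values were seen. For comparison, the third set comes from strong peaks that have the consensus, in capitals, and the last line is the whole stretch scanned around the AURKAIP1 summit, whose capitals mark the reverse complement of CCGGAAA.
DCAF10, chr9:37800756-37800822, plus strand: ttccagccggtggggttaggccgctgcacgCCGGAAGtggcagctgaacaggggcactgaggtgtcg
DMAP1, chr1:44213389-44213455, plus strand: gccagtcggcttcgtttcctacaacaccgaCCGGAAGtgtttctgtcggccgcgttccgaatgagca
RPS7, chr2:3575169-3575235, minus strand: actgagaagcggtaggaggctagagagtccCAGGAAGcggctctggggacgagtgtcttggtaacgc
AURKAIP1, chr1:1375216-1375416, plus strand: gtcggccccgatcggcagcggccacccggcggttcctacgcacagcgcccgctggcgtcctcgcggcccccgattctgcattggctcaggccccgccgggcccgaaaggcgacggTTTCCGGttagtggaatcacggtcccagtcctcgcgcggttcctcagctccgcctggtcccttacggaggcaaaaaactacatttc

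In the rest of the text a near word is CCGGAAG with only its first or only its last base changed, positions being counted from 1 at the 5′ end. There are 6 such words, 3 changed at position 1 and 3 at position 7. Each was searched on both strands in a window reaching 50 bp to each side of the summit, and in windows of that size centred 500 bp away on both sides, which are called flanks. These groups were formed after the values of all 38 words that differ from CCGGAAG or CAGGAAG at 1 base had been seen.

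Any of the 38 words stood in 64.3% of the 6040 summit windows (63.1 to 65.5%) and in 48.7% of the flank windows, a ratio of 1.32, and in 56.7% of all one-strand promoters. The 6 near words, picked from the 38 with these values known, differed more. A near word stood in 17.5% of the 6040 summit windows (16.6 to 18.5%) and in 4.45% of the flank windows, a ratio of 3.93. The leading word was GCGGAAG (substitution C1G), found in 6.69% of summit windows and 1.21% of flanks. CCGGAAC (G7C) followed with 4.37% and 0.944%, and CCGGAAA (G7A) with 3.77% and 0.728%. ACGGAAG (C1A) was found in 1.89% of summit windows, TCGGAAG (C1T) in 1.44% and CCGGAAT (G7T) in 0.977%. Of all one-strand protein-coding promoters, 9.80% held a near word in a window of the same length, and of the 8895 promoters without a wide ZBTB11 peak 4.64% did. The windows of these promoters were centred 13 bp downstream of the start and not on a summit. Of the IgG peaks at one-strand promoters, which were taken at any width, 6.09% held a near word (4.85 to 7.63%).

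The share with a near word was larger in stronger peaks. The number of fragments at a summit was solved from the deposited fold enrichment and p-value. By this measure the IgG peaks at one-strand promoters had a median of 6 fragments. Of the 1261 peaks lacking the consensus with 3 to 7 fragments, 5.0% held a near word, against 3.73% of their flanks. The share was 10.4% at 8 to 12 fragments, 18.3% at 13 to 25, 27.4% at 26 to 49, 34.9% at 50 to 99 and 41.0% from 100 to under 200 fragments. In the 185 peaks with at least 200 fragments it reached 54.6% (47.4 to 61.6%), while the flanks of each of these classes stayed between 3.73% and 5.08%. The same classes differed in how often the consensus was absent, from 88.6% of one-strand promoter peaks with 3 to 7 fragments to 39.0% of those with at least 200. The SP/KLF word GGGCGGG showed no such order, with 12.8% in the weakest class, 19.3% at 13 to 25 fragments and 15.1% in the strongest. From the weakest to the strongest class of members, the share with a summit within 50 bp of a start also went from 13.8% to 47.6%, and the median observed/expected CpG from 0.660 to 0.888. The part of these measures in the result was not tested.

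**Figure D1:**
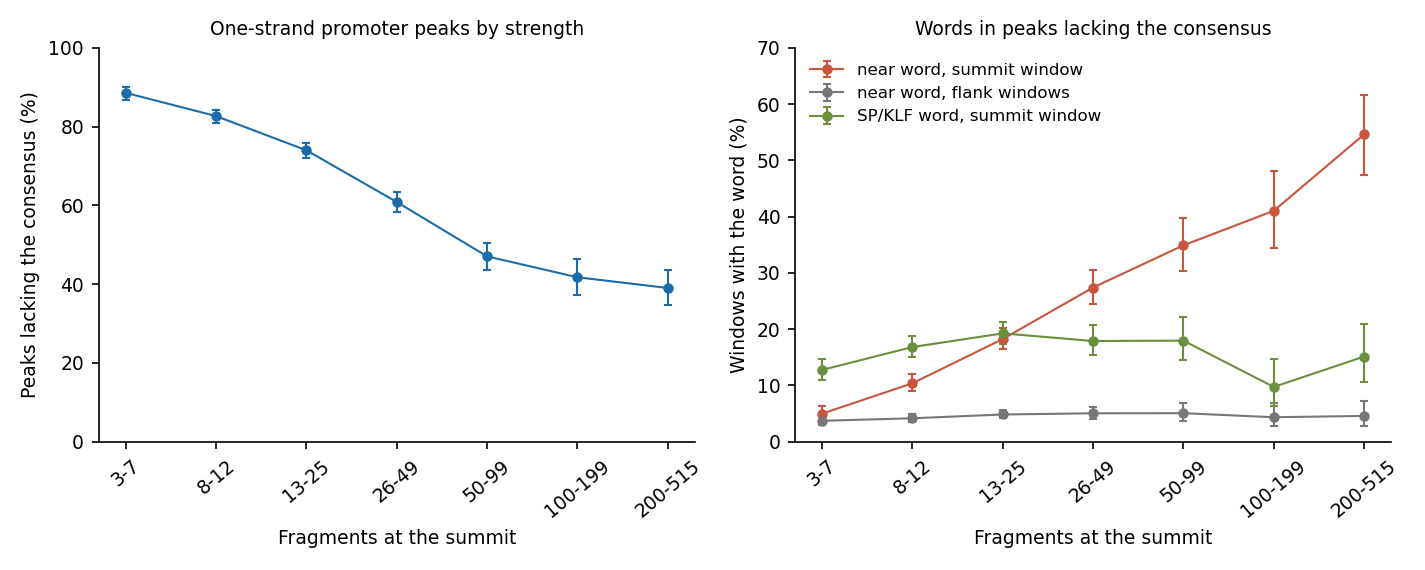
One-strand promoter peaks by the number of fragments at the summit (7 classes, x axis). The left panel gives the percent of peaks lacking the consensus, which runs from 88.6% to 39.0%. The right panel gives, in peaks lacking it, the percent of summit windows with a near word (from 5.0% to 54.6%), of flank windows with one, and of summit windows with the SP/KLF word. Bars are Wilson 95% intervals.

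Taking the 764 peaks lacking the consensus that had at least 50 fragments, 41.2% held a near word within 50 bp of the summit (37.8 to 44.8%) against 4.78% of flanks, a ratio of 8.63. GCGGAAG was in 15.7% of these windows, CCGGAAC in 12% and CCGGAAA in 10.3%, and their ratios to the flanks were 12, 10.8 and 13.2. Within 100 bp of the summit 57.3% of the 764 peaks had a near word, against 10.7% of peaks with under 8 fragments and 8.95% of promoters without a wide peak. At least 2 near words stood within 100 bp of the summit in 20.5% of the 764, in 0.476% of the weak peaks and in 0.596% of promoters without a wide peak. Read the other way, the 4301 members with no near word within 100 bp had a median of 11 fragments (quartiles 7 and 20). The 1373 members with 1 near word had a median of 20 fragments (12 and 41), and the 366 with more had a median of 40 (17.3 and 103).

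The shares differed with the base that was changed. In members with at least 50 fragments, words changed at position 7 stood in 23.3% of windows and in 2.42% of flanks, and words changed at position 1 in 21.2% and 2.42%. Words changed at position 6 were in 15.8% and 4.06%, with CCGGACG (A6C) in 5.50% and CCGGATG (A6T) in 3.8% of windows, and words changed at position 5 in 15.2% and 7.20%. The summit and flank intervals overlapped for words changed at position 2 (8.12% against 5.30%), position 3 (6.41% against 5.24%) and position 4 (3.27% against 1.90%). Of the 38 words, 17 were above their flanks with intervals apart over all members, 14 in peaks with at least 50 fragments, and 3 in peaks with under 8 fragments, where 1 was below.

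**Figure D2:**
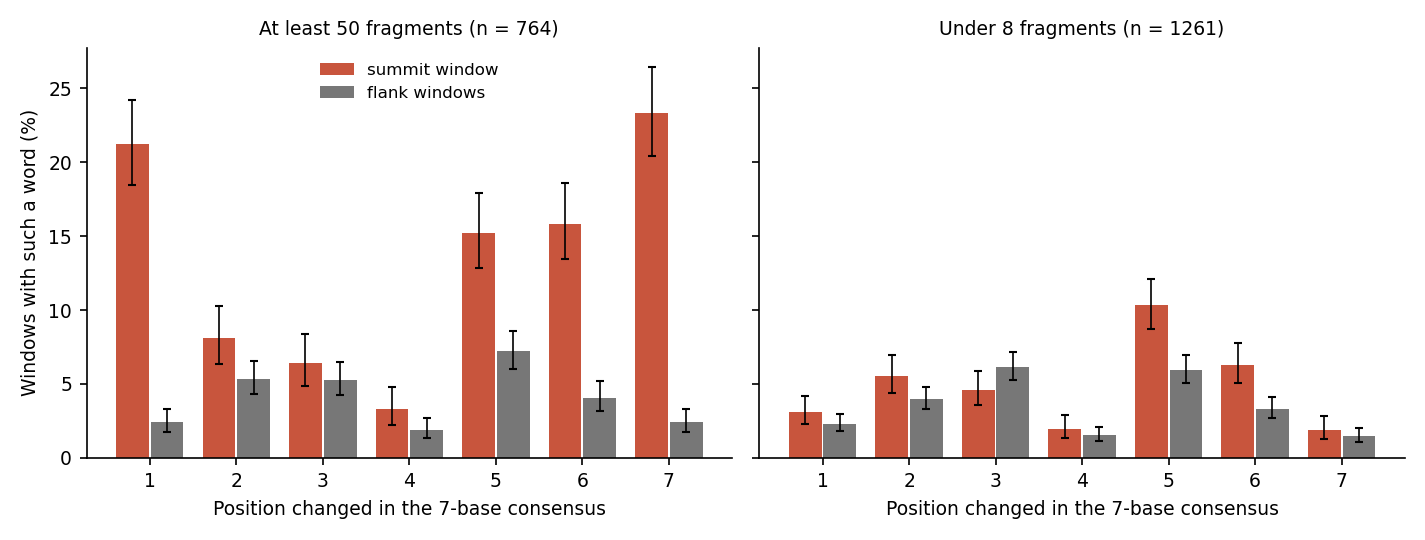
Percent of windows (y axis) that hold CCGGAAG with 1 base changed, by the position changed (x axis), in summit windows and flank windows of peaks lacking the consensus. Bars carry Wilson 95% intervals. In the 764 peaks with at least 50 fragments the summit bars for positions 1 and 7 stand at 21.2% and 23.3%, and in the 1261 peaks with under 8 fragments at 3.09% and 1.90%.

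Near words were not particular to peaks lacking the consensus. Peaks that have the consensus also held near words beside it, in 37.0% of the 993 windows with at least 50 fragments. The difference from the 41.2% of members of that strength was 4.27 percentage points, with an interval of -0.322 to 8.87 that includes 0. Over all strengths members held near words less often, 17.5% against 23%, a difference of -5.51 percentage points (-7.42 to -3.65).

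The near words lay close to the summit. In members with at least 50 fragments, words changed at position 1 were found in a median of 2.62% of peaks per 10-bp bin within 60 bp of the summit, and of 0.654% at 100 bp or more. For words changed at position 7 these medians were 2.49% and 0.524%. The SP/KLF word stood in 1.31 to 2.75% of peaks per bin near the summit and in 1.44 to 3.53% farther out. Of the near words within 50 bp of these summits, 49.3% were on the strand of the transcript (44.4 to 54.1%). After GCGGAAG the next base was T in 45% of 129 copies at strong summits and in 10% of 20 copies in their flanks (2.79 to 30.1%). Over all members it was T in 29.0% of 421 summit copies and in 11.5% of 148 flank copies. In strong peaks with the consensus, T followed 43.3% of 699 summit copies of CCGGAAG and 23.3% of 30 flank copies (11.8 to 40.9%).

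**Figure D3:**
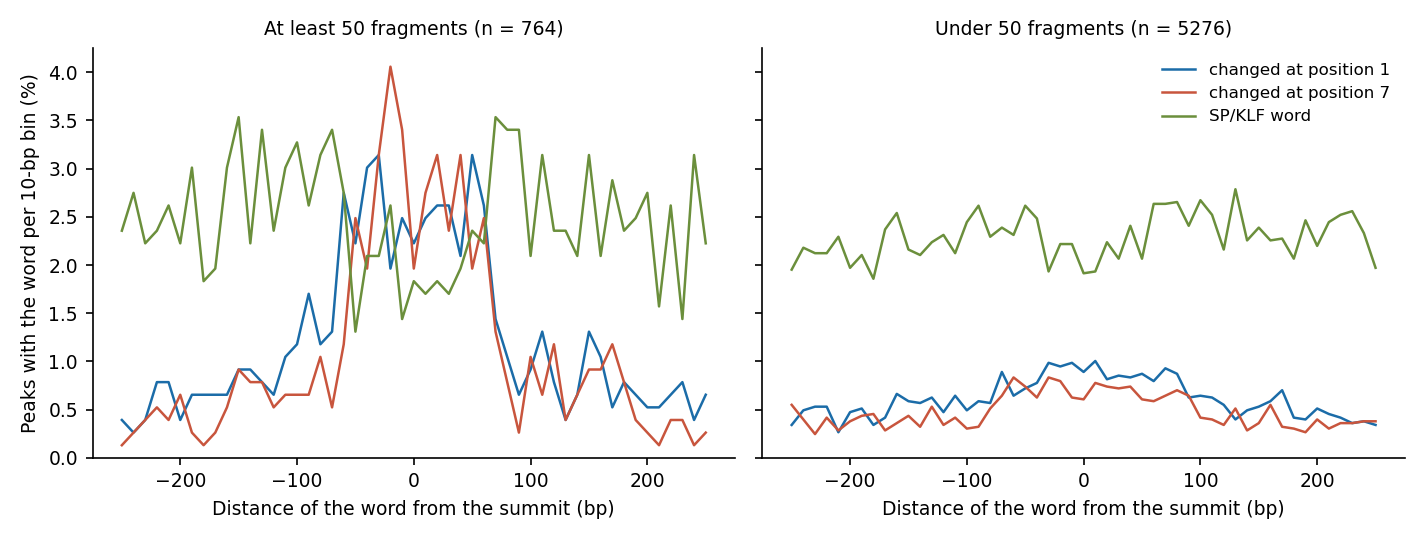
Percent of peaks lacking the consensus with a word in each 10-bp bin (y axis) by the distance of the word from the summit in bp (x axis), for words changed at position 1, words changed at position 7 and the SP/KLF word. In the 764 peaks with at least 50 fragments (left) the near words gather within about 60 bp of the summit, and in the 5276 weaker ones (right) they rise to at most 1.00% per bin.

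Words were also ranked without reference to the consensus. The 8 leading 7-base words were chosen on odd-numbered chromosomes by summit share minus flank share, with the peaks that held a chosen word set aside before the next was chosen, and then measured on the other chromosomes. Over all members the first was CCGCCCC, in 16.4% of summit windows and 9.77% of flanks, and the next was CCGCCGC, in 16.4% and 8.72%. They were followed by CCCGGCC in 13.3% of windows, CCCGGGC in 10.1%, CCCGGCG in 10.2% and CCCCGCG in 9.71%, with ratios to the flanks of 1.66 to 2.06. CCCGGAG, in 7.38% of windows, had a ratio of 2.27. The last of the 8 was CTTCCGC, the reverse complement of GCGGAAG, in 6.92% of windows against 1.11% of flanks, a ratio of 6.22. NELFB, MRPL44 and TMEM222 were the strongest members with CCGCCCC, and NDUFS7, CDK5RAP1 and STX18 those with CCGCCGC. Promoters without a wide peak held CCGCCCC in 9.96% and CCGCCGC in 13.2% of windows.

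Among members with at least 50 fragments, a class chosen after the values were seen, other words led. CTTCCGC came first, in 14.6% of the windows measured (11.4 to 18.6%) against 0.949% of flanks, followed by CCGGAAC with 11.4% and 1.63%. CCGGAGC, which differs from the consensus at 2 bases, came next, with 14.4% and 3.39%. CGGAAAC, which overlaps CCGGAAA, was found in 7.86% and 0.542%, and CACTTCC, whose reverse complement GGAAGTG overlaps GCGGAAG, in 7.86% and 2.98%. The ratio was 2.67 for CCCCGGC, 2.12 for CCCGCCG and 4.57 for GCCGGAC. In the 326 strong members without a near word within 100 bp, CCGGAGC came first, in 12.7% of the 157 windows measured (8.40 to 18.9%) against 3.50% of flanks and 5.79% of promoters without a wide peak. CTTCCCC had 12.7% against 4.14%, and the ratio was 4.67 for CGGACGC. For the other 5 of these 8 words the ratio was 1.08 to 2.0, the lowest being CGGAGGC (4.46% against 4.14%).

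Words of 17 entries read by known promoter factors were measured the same way. Over all members 5 were above their flanks with intervals apart. They were the SP/KLF word GGGCGGG (16.6% against 10.6%), the E2F word GGCGGGAA (1.62% against 0.820%), the YY1 word AAGATGGC (1.09% against 0.497%), the CREB/ATF word TGACGTCA (0.596% against 0.207%) and the ETS core CCGGAA (8.74% against 3.17%). The ETS core overlaps the consensus and the words changed at position 7. All 17 were searched on both strands. The TATA box word TATAAA was below, at 1.24% against 3.84%, and stood in 8.45% of promoters without a wide peak. YY1 and CREB/ATF words were in 1.57% and 0.517% of those promoters. Of all one-strand promoters, however, 16.4% held the SP/KLF word, 2.90% the YY1 word, 0.817% the CREB/ATF word, 1.17% the E2F word and 10.3% the ETS core. The intervals of members and of all one-strand promoters overlapped for the SP/KLF, CREB/ATF and E2F words. Members were lower for the YY1 word and for the ETS core, some copies of which the choice of members removes. Promoter windows were centred 13 bp downstream of the start and member windows on the summit, which lay within 50 bp of a start in 20.9% of members. The part of this placement in the differences was not tested. For the other 11 entries the intervals of summit windows and flanks of members overlapped. Among them were NRF1 (CGCATGCG, 0.414%), NF-Y (AGCCAAT, 1.09%), the E-box (CACGTG, 1.80%) and CTCF (CCANNAGGG, 1.92%). In members with at least 50 fragments only GGGCGGG (15.2% against 8.44%) and CCGGAA (23.3% against 3.6%) of the 17 were above, while TATAAA (0.654% against 4.97%) and the AP-1 word TGANTCA (0.524% against 2.29%) were below.

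CpG content differed little between the peaks lacking and those with the consensus. Over the stretch within 100 bp of the summit, members had a median GC content of 67.7%, a median of 18 CG dinucleotides and a median observed/expected CpG of 0.817. Peaks with the consensus had medians of 67.2%, 19 and 0.846. Promoters without a wide peak had 61.7%, 8 and 0.509. The criteria of a CpG island (GC of at least 50% and observed/expected CpG of at least 0.6) were met by 78.6% of members, 84.0% of peaks with the consensus and 43.8% of promoters without a wide peak. The difference in observed/expected CpG between members and peaks with the consensus was -0.0290. It was -0.00798 among peaks whose q-value did not exceed 0.05, where its interval (-0.0207 to 0.00178) includes 0. Within the members, the median observed/expected CpG was 0.795 with no near word and 0.902 with 2 or more. Each near word, like the consensus form CCGGAAG, itself holds a CG that is counted in this stretch. Part of both differences is therefore fixed by construction, and its size was not tested.

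Peaks lacking the consensus were weaker. Their median was 13 fragments (quartiles 8 and 26) over a background of 2.35, against 33 (15 and 85) in peaks with the consensus, 29.5 at promoters with starts on both strands and 6 over all wide peaks. The median fold enrichment was 4.25 against 8.0. At least 50 fragments were reached by 12.6% of members and 38.6% of peaks with the consensus, against 5.26% of all wide peaks. A q-value not above 0.05 was given to 75% of members and 92.8% of peaks with the consensus, against 27.8% of all wide peaks. The highest value in the list was 515 fragments, which is just under 516, or 2 times the smallest peak width of 258 bp. Of the 162 peaks with at least 450 fragments, 48 were members.

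Summits of members lay farther from the start. Of the members, 35.2% had their summit within 100 bp of the nearest protein-coding start, against 54.7% of peaks with the consensus, a difference of 19.5 percentage points (17.2 to 21.8). The summit lay downstream of the start in 54.4% against 46.1%, and the quartiles of the distances were at -143 and 194 bp, against -86 and 71 bp. The summit base fell in an intron in 36.5% of members against 26.4%, in a 5′ UTR in 27.5% against 33.3%, and in coding sequence in 9.09% against 7.57%. Among members with at least 50 fragments 25.1% were intronic and 35.3% were in a 5′ UTR. A consensus copy lay elsewhere in the peak interval in 35.1% of members, and in 44% of those with at least 50 fragments. The nearest copy was centred 98 to 150 bp from the summit in 10.1% and 15.7%. Member intervals had a median width of 813 bp, and the share expected for stretches of that length was not computed.

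**Figure D4:**
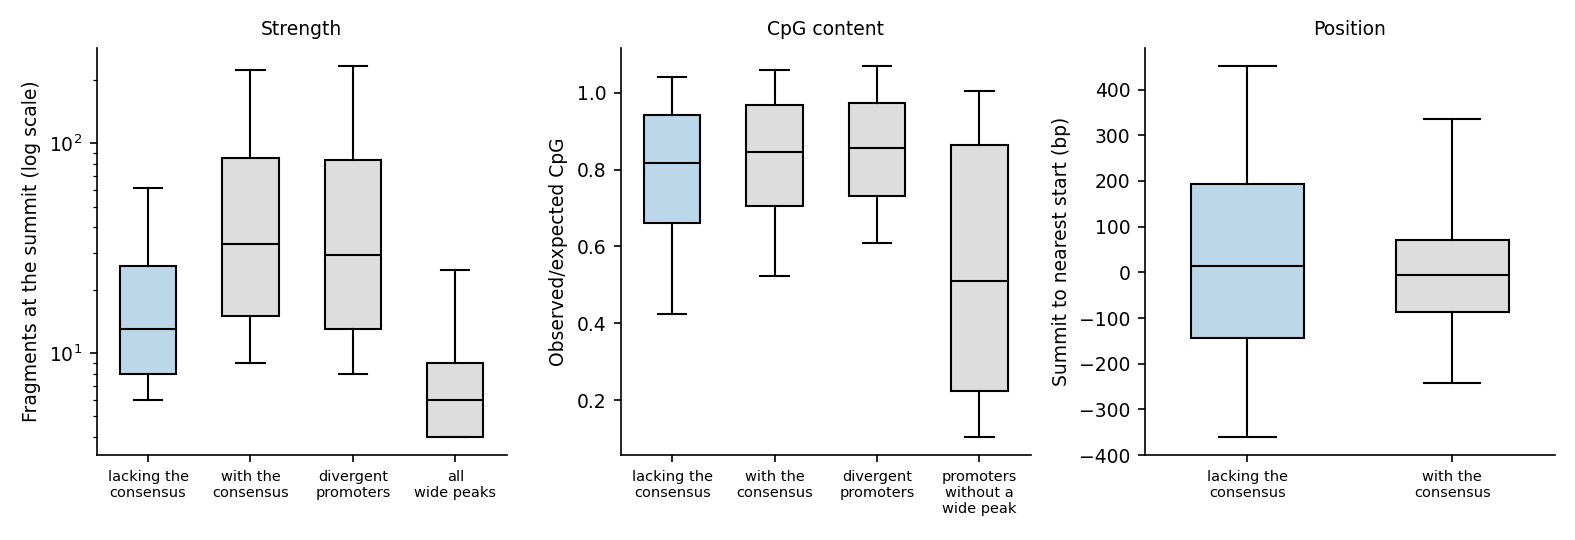
Peaks lacking the consensus beside the sets they were compared with. Boxes show quartiles with the median, and whiskers the 10th and 90th percentiles. The panels give fragments at the summit (log scale, median 13 in members and 33 with the consensus), observed/expected CpG within 100 bp of the summit (median 0.817, and 0.509 in promoters without a wide peak) and the distance from the nearest start in bp, positive downstream.

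The IgG control could be compared on chromosomes 1, 10 and 21, where its list holds peaks. There 38.5% of the 934 members overlapped an IgG peak (35.5 to 41.7%), as did 39.8% of peaks with the consensus and 21.8% of all wide peaks. The difference between the first 2 was -1.24 percentage points, with an interval of -7.15 to 4.54. The IgG peaks under the 360 overlapping members had a median of 7 fragments (4 to 13) and the members a median of 14. In 41 of the 360 the IgG peak had at least as many fragments as the ZBTB11 peak. In the 49 that had at least 50 ZBTB11 fragments this was so in 0, and the ZBTB11 value was 5.15 to 94.8 times that of IgG. These libraries were not scaled to each other.

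The 20 members with the most fragments had 478 to 515 and ranked between 8 and 298 of all ZBTB11 peaks by p-value. Of these, 15 had a near word within 100 bp of the summit, 16 had the summit within 100 bp of a start, and the nearest consensus copy lay at least 107 bp away. The order by p-value differs from that by fragments. The member with the smallest p-value, at UTP3 (460 fragments, −log10 p of 449.6), is not among the 20 and is named after its value was seen. Whether the fragment counts near 515 were limited by the handling of duplicate reads was not tested. The highest peak (515 fragments, 13.9-fold) lay 30 bp upstream of GEMIN7, which encodes a part of the SMN complex that assembles spliceosomal particles, in an interval that also holds a start of the kinase gene MARK4. GCGGAAG stood 21 bp from its summit. NELFB, for a subunit of the factor that pauses RNA polymerase II, had 504 fragments and GCGGAAG at 41 bp. PEMT, for the enzyme that methylates phosphatidylethanolamine, had 503 fragments and CCGGAAC at 14 bp. BMS1, for a GTPase of ribosome assembly, had 494 fragments with 7 in the IgG peak there. AURKAIP1 had 494 with 10 in IgG, and CCGGAAA at 18 bp. TMEM222 had 486 with 7 in IgG.

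NDUFS7, for a subunit of respiratory complex I, had 498 fragments at chr19:1383379-1384290 and CCGGAAC 13 bp from the summit, which lay in a 5′ UTR. MRPL44, for a protein of the mitochondrial ribosome, had 490 fragments, with CCGGAAC at 12 bp as the nearer of 2 near words. CDK5RAP1, for an enzyme that modifies mitochondrial tRNAs, had 491 and ACGGAAG at 6 bp. ACSF3, for a mitochondrial malonyl-CoA synthetase, had 478 and 3 near words. SLC33A1, for the acetyl-CoA carrier of the endoplasmic reticulum, had 488 fragments and CCGGAAC at 13 bp. DDX55, for an RNA helicase, had 486 and TOP3B, for topoisomerase III beta, 481, each with 2 near words. STX18, for a syntaxin of the endoplasmic reticulum, had 481 and CCGGAAC at 18 bp.

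The 5 of the 20 without a near word were TMEM242, NSFL1C, TBC1D19, B4GALT7 and FBXL15, with 480 to 486 fragments. Of the 38 words that differ from the consensus at 1 base, which are common in flanks too, the nearest at TMEM242 was CAGGAGG (A6G of CAGGAAG), 2 bp from the summit. At B4GALT7, for a galactosyltransferase that starts glycosaminoglycan chains, it was CCGGGAG (A5G) at 7 bp, and at FBXL15, for an F-box protein, CCGGAGG (A6G) at 15 bp. At NSFL1C, for a cofactor of the ATPase p97, it was CGGGAAG (C2G) at 42 bp, and at TBC1D19 CCTGAAG (G3T) at 17 bp.

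Of 17 genes that the study examined, 6 started at a member, beside 29% of all protein-coding genes. The study had chosen 8 of the 17 (TTC26, TACO1, COQ3, DUS1L, ANKRD40, HEMK1, ATPAF1 and STX16) as loci with ZBTB11 peaks in these data. PRRG2, MMP9, MMP19, SPARC, PECAM1, SPP1 and COL14A1 came from its putative direct targets, found by combining this ChIP-seq with RNA-seq. Neither set is an independent sample. Both ANKRD40 (445 fragments) and TTC26 (414), whose product works in cilia, had GCGGAAG within 100 bp of the summit. COQ3, for a methyltransferase of coenzyme Q synthesis, had 400 fragments and CCGGAAA 9 bp from the summit, and DUS1L, for a tRNA dihydrouridine synthase, had 402 and CCGGAAA at 38 bp. A consensus copy centred 99 bp from the DUS1L summit ran past the end of the scanned stretch. TACO1, which aids translation of a mitochondrial oxidase subunit, had 454 fragments and no near word. SET, the gene of the binding partner, had 9 fragments, a 2.88-fold enrichment and no near word, at a summit -321 bp from the nearest start, in an intron. ATPAF1 and PRRG2 started at peaks of divergent promoters, and HEMK1, STX16, COL14A1 and ZBTB11 itself at peaks with the consensus. MMP9, MMP19, SPARC, PECAM1 and SPP1 started at none of these peaks. Only wide peaks at protein-coding starts were counted here, so narrower peaks and peaks elsewhere in these genes are not covered. For MMP9, the paper places possible ZBTB11 binding in the gene body from its ChIP-seq, and reports occupancy there by ChIP-qPCR.

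In all, 5784 of 19970 protein-coding genes (29%) started at a member and 2609 (13.1%) at a peak with the consensus, with 217 at both, which is 3.75% of the former and 8.32% of the latter. The groups of genes set beside these shares were defined by symbol, and members of a group often share sequence or position. CDK and cyclin genes, which drive the cell cycle and transcription, had the highest share, with 28 of 49 at a peak lacking the consensus (57.1%, 43.3 to 70%). The top ones were CCNC (456 fragments), for the cyclin of the Mediator kinase, CDK7 (220), for the kinase of the general factor TFIIH, CDK6 (116) and CCNL1 (108). At a peak with the consensus 10 of the 49 started (20.4%). Translation initiation genes followed with 26 of 55 at members (47.3%), led by EIF3F (381), EIF2D (379) and EIF3D (293), and 14 at peaks with the consensus (25.5%). Kinesin genes, for motors on microtubules, had 18 of 39 at members (46.2%) and 3 of 39 at peaks with the consensus (7.69%). Their peaks had a median of 15.5 fragments, against 14 over all genes at members, with KIF5C on top at 67. RAB genes, for GTPases of vesicle traffic, had 31 of 75 (41.3%), with RAB18 at 398.

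Complex I genes had 20 of 48 at members (41.7%), 3 at peaks with the consensus and 20 at divergent promoters. NDUFC2 had 440 fragments, at a start shared with the readthrough gene NDUFC2-KCTD14 that is counted in the group, and NDUFB6 had 83. Genes of the mitochondrial ribosome had 22 of 78 at members (28.2%), led by MRPL44, MRPL1 (435) and MRPL39 (403), but the median of the group was 13 fragments, against 97.5 at its 18 genes with the consensus. Cytosolic ribosome genes had 26 of 84 (31.0%), with RPS20 at 472 and RPS3 at 120. Proteasome genes had 15 of 40 (37.5%), with PSMD11 at 291, and RNA polymerase genes 9 of 34 (26.5%), with POLR3B, for a subunit of RNA polymerase III, at 418. General factor genes had 17 of 62, with GTF2H4 (476) and GTF3C5 (462) far above TAF10 (86). ZNF zinc finger genes were the largest group, with 193 of 515 at members (37.5%, 33.4 to 41.7%) and 159 at peaks with the consensus (30.9%), and ZNF391 (449) and ZNF770 (448) led.

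Shares were low in genes of specialised cells. Olfactory receptors had 11 of 416 (2.64%), keratins 1 of 55 (KRT8, 9 fragments) and cytokines 6 of 79 (7.59%), where IL12B was highest with 49 fragments at a summit -861 bp from the start. In these 3 groups 0 genes started at a peak with the consensus. The intervals of the shares of 5 groups (CDK and cyclins, translation initiation, kinesins, RAB and ZNF genes) lay above 29%, and those of 4 groups (the 3 named and MMP, ADAM and ADAMTS genes, 17.6%) lay below it. For the rest of the 30 groups the interval held 29%.

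**Figure D5:**
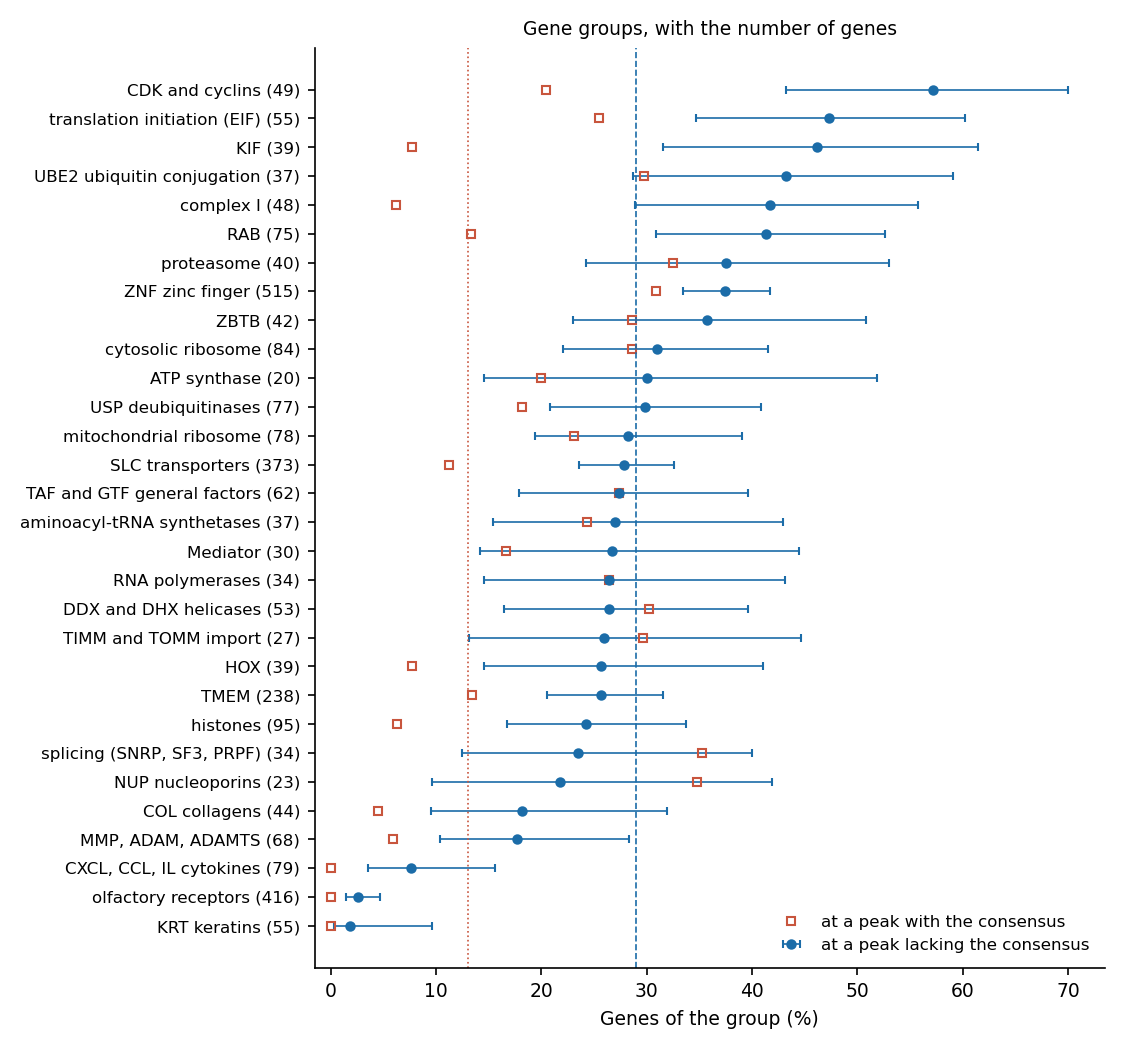
Percent of the genes of each of 30 groups (rows, with the number of genes) that start at a peak lacking the consensus, with Wilson 95% intervals, and at a peak with it. The dashed and dotted lines give the shares over all protein-coding genes, 29% and 13.1%. CDK and cyclin genes stand highest at 57.1% and keratins lowest at 1.82%.

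At the limit of the width criterion the values were low on both sides. The 3 narrowest members, 500 bp wide, were at RASSF5 (9 fragments, 4.25-fold), ALG9 (10, 3.85-fold) and NFIC (6, 2.34-fold). The 3 peaks of 499 bp that missed it only by width were at DPH5 (9, 3.21-fold), FAM107B (4, 2.12-fold) and ATP8B4 (5, 2.55-fold).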

How the data were processed

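ChIP-seq reads of both libraries were aligned by the authors to hg38 with BWA and peaks were called with MACS at a p-value below 0.05, separately for ZBTB11 and IgG. The deposited lists give each peak's position, summit, fold enrichment as a ratio to the local background, and p- and q-values as −log10. The deposited score was not used. Whether duplicate reads were removed is not given in the sources used here, and the release of MACS is uncertain.

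Fragments and background at each summit were solved from fold enrichment and p-value under a Poisson background with a pseudocount of 1. For 100% of both lists a whole number of fragments gave back the −log10 p to within 0.001. The largest pileup was 515 fragments, and whether a ceiling held down the strongest peaks was not tested. A promoter without a wide peak is a one-strand MANE Select start over 1000 bp from any wide peak, with its window centred 13 bp downstream. Windows of all one-strand promoters were placed in the same way at their MANE Select starts. Shares carry Wilson and differences Newcombe 95% intervals. The scripts (Python 3.11.15, NumPy 2.4.6, pandas 2.3.3 and SciPy 1.17.1) were tested on simulated data.

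The members, word lists, gene groups and comparisons were chosen with earlier results of these data known. Named genes are the 20 members with the most fragments, up to 4 per gene group, the study's genes and the strongest members per leading word. The 3 narrowest members and the 3 widest peaks that missed only by width were also named. Classes by fragments and the grouping of near words were chosen after seeing the data. Sequences from chromosome 8 and with more than 30 bases of UTR were not printed. Alternatives varied width, scan window, extension, transcript set, p and q, IgG overlap, word window, background and word length.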

Additional observations from a re-analysis of the deposited data

How the results depend on the processing

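No paired analysis was possible because ZBTB11 and IgG are represented by 1 library apiece. Of 92 alternative values for the 10 results, 46 stayed within the interval of the reported value (or 1.5 times a count or ranking ratio), 46 moved and 0 turned direction. A turn of direction could be recorded only for results that have a value of no difference. These were the words that differ at 1 base, CpG content, fragments and the ranked words, with 11, 12, 12 and 5 alternatives. None of these alternatives set members beside peaks of the same number of fragments. The cause of each move was not tested beyond what its own construction fixes. The number of members was 3151 at a width of at least 800 bp, 3921 with the consensus scanned in the whole interval, 3815 at a p of 1e-05 or less and 934 on chromosomes with IgG peaks. The share lacking the consensus was 72.6% and 66.6% at widths of at least 400 and 800 bp, 80.9% and 45.5% with the scan of 50 bp and of the whole interval, 67.9% and 71.2% with extensions of 0 and 1000 bp, 71.6% with all transcripts of protein-coding genes, 68.8% with MANE Select starts, 65.5% at a q of 0.05 or less, 62.8% at the stricter p and 71.5% on chromosomes with IgG peaks. The ratio of median fragments, members to peaks with the consensus, was 0.394 as reported, 0.367 at the lower width, 0.368 and 0.500 with the 2 scans, 0.486 and 0.512 at the q and p limits and 0.448 on chromosomes with IgG peaks. The difference in observed/expected CpG was -0.0121 at the larger width, -0.0406 with the scan of 50 bp, -0.0468 with all transcripts, -0.00798 and -0.00680 at the q and p limits and -0.0136 on chromosomes with IgG peaks. Its interval included 0 at the larger width (-0.0276 to 0.00148), at the q limit, at the p limit (-0.0181 to 0.00352) and on chromosomes with IgG peaks (-0.0376 to 0.0256). Summits within 100 bp of a start were 33.2% and 36.5% at the 2 widths, 43.6% and 32.1% with the 2 extensions, and 38.9% and 40.6% at the q and p limits. Overlap with IgG was 35.3% and 45.3% at the 2 widths, 42.8% at the p limit and 16.8% where the ZBTB11 summit had to lie inside the IgG peak. Genes at members numbered 3174 at the larger width and 3813 at the p limit.

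The ratio of summit to flank for any of the 38 words, 1.32 as reported, was 1.38 and 1.41 at the q and p limits, 1.16 and 1.44 with word windows of 100 and 25 bp and 1.18 against promoters without a wide peak. Of the 17 listed words, 2 were above on chromosomes with IgG peaks and 3 against promoters without a wide peak. For near words the ratio ranged from 3.16 to 5.71 over 13 alternatives in all members and from 6.08 to 10.8 over 14 in those with at least 50 fragments. The near words and the alternatives by distance from the start were chosen after seeing the data. In strong peaks the ratio was 10.8 where the summit lay within 50 bp of a start and 6.39 where it lay over 100 bp away. The median ratio of the 8 ranked words was 1.80 and ranged from 1.76 to 1.90 over 5 alternatives. The strongest class has 185 members, which sets the width of its intervals.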
